A study of Mus musculus with 10 samples.

Results

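Genes of the Wnt pathway were examined in melanoma tumours of mice. The set holds 52 genes, chosen by name and found by their Ensembl identifiers in the GRCm38 annotation, of the 52636 genes in the count table. By role they are 19 Wnt ligands, 10 frizzled receptors, 5 other receptors and co-receptors, 11 secreted inhibitors and 7 feedback and target genes. All 52 were matched to 1 row each. The 6 Arf6Q67L tumours carried BrafCA, floxed Cdkn2a (Cdkn2af/f) and Arf6Q67L, an allele of Arf6 known to keep its GTPase loaded with GTP. The 4 control tumours carried BrafCA and Cdkn2af/f without Arf6Q67L, so both groups share a Cre-activated oncogenic Braf allele and a floxed tumour suppressor locus. Polyadenylated RNA of tumour tissue was sequenced from strand-marking libraries, and neither the Cre driver, the age nor the sex of the mice is given in the sources used here.

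Wnt proteins are secreted, lipid-modified ligands that bind frizzled receptors. With the co-receptors LRP5 or LRP6 this binding stabilises beta-catenin, which enters the nucleus, joins TCF/LEF factors and switches on target genes, among them Axin2, Nkd1, Rnf43, Znrf3 and Notum, whose products dampen the pathway again. Through ROR1, ROR2 or RYK, ligands such as WNT5A act on cell movement and polarity without beta-catenin. Melanocytes arise from the neural crest under Wnt signals, and WNT5A is known for its link to invasive melanoma.

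Library totals lay between 31372896 and 37918116 counts in Arf6Q67L tumours and between 28635414 and 40869091 in controls. Of 7 melanocyte markers 2 passed the filter on low counts. Mitf stood between 11.1 and 26.1 CPM (counts scaled to a common library size) in Arf6Q67L tumours and between 12.02 and 20.2 CPM in controls, and Pmel, a pigment gene, between 0.524 and 0.940 CPM in Arf6Q67L tumours and between 0.659 and 0.939 CPM in controls. Tyr and Dct had 0 counts in all 10 tumours, Tyrp1 and Mlana had at most 3 counts in any tumour, and Sox10 was detected in all 10 but did not pass the filter. Hair follicle markers, which Wnt genes often accompany in skin, were near 0, with a summed level of 0.108 to 0.715 CPM in Arf6Q67L tumours and 0.127 to 0.403 CPM in controls. Fibroblast markers summed to between 4274 and 6599 CPM in Arf6Q67L tumours, and to between 2831 and 6159 CPM in controls. Control 4 lay farthest from the other tumours on the first principal component (25.8% of the variance). Arf6 itself averaged 104 ± 21.3 CPM over the 6 Arf6Q67L tumours, against 93.0 ± 17.4 CPM over the 4 controls (mean ± SD), with an edgeR adjusted p of 0.758, so its level does not tell the genotypes apart.

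Most of the pathway was expressed at the level of the filter, which admits low genes such as Fzd9 (mean 0.527 CPM). Of the 52 genes 40 (76.9%) passed the expression filter, against 32.8% of all genes and 65.3% of protein-coding genes in the table. Every co-receptor and every feedback or target gene passed, as did 9 of 10 frizzled receptors, 11 of 19 ligands and 8 of 11 inhibitors. The 12 genes under the filter were Wnt1, Wnt3, Wnt3a, Wnt4, Wnt7a, Wnt8a, Wnt8b, Wnt9b, Fzd10, Sfrp5, Dkk1 and Dkk4. Wnt3a, Wnt7a, Wnt8b and Dkk4 had 0 counts in all 10 tumours, and a count of 0 allows up to 3 counts, which is 0.0734 to 0.105 CPM in these libraries. Wnt9b, a ligand of kidney and face development, reached 80 counts (2.29 CPM) in Arf6Q67L tumour 6 and at most 7 counts in any other tumour.

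**Figure D1:**
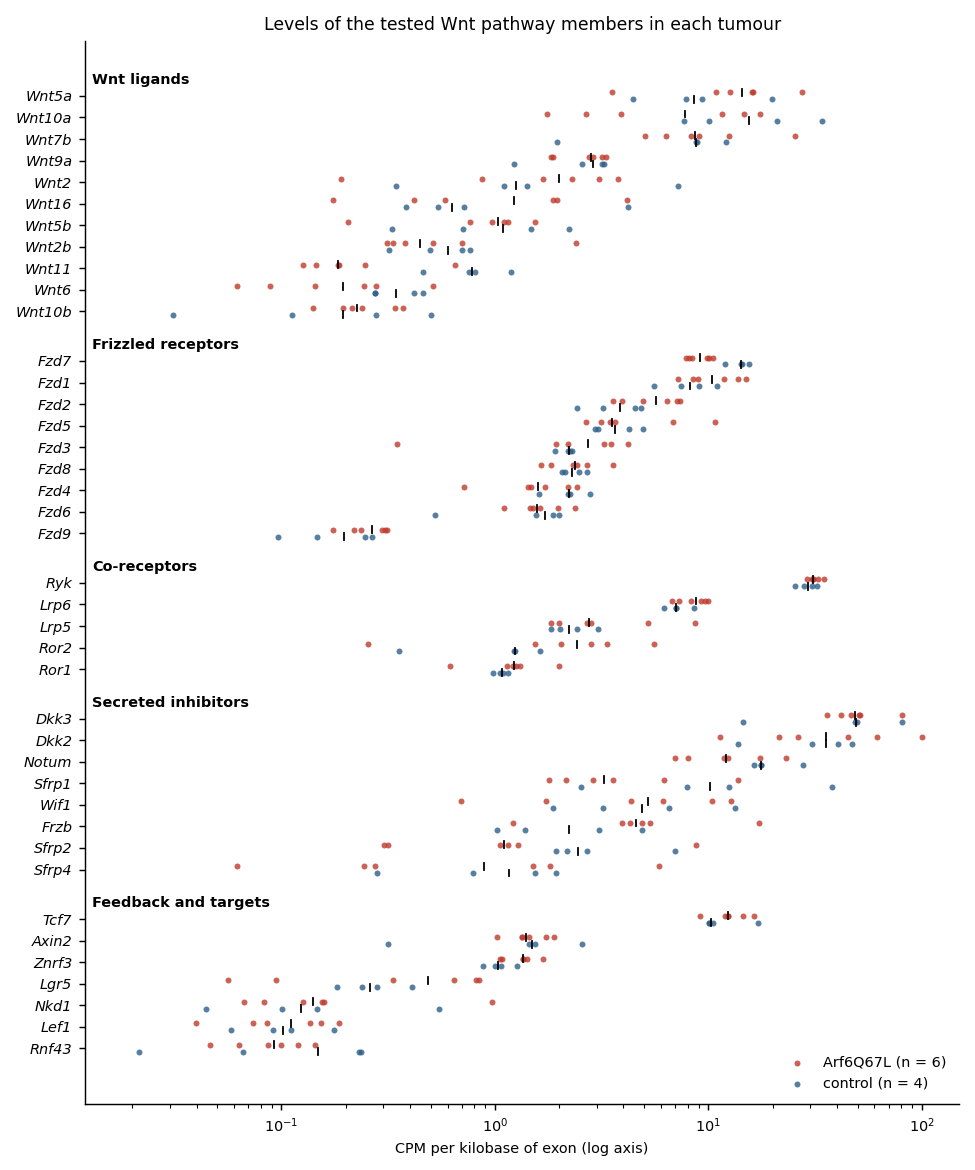
Levels of the 40 tested genes in CPM per kilobase of exon (log axis), by role and in order of mean level, with 1 point per tumour (Arf6Q67L, red, n = 6; control, blue, n = 4) and a black tick at each group's median. Dkk3, Dkk2 and Ryk have the highest mean levels, and of all genes shown the groups are apart for Fzd7 alone.

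The comparison asks which of these genes differ between tumours with and without Arf6Q67L. In edgeR, 0 of 40 tested genes passed the threshold (adjusted p under 0.05, percent called over all 17286 genes 0.0%). At an unadjusted p under 0.05 there were 2, Wnt11 and Fzd7, both lower in Arf6Q67L tumours, while 11.7% of all genes reached that level (4.65% higher and 7.05% lower). DESeq2 called the same 2 genes lower, out of 39 with an adjusted p, against 2.5% of all genes in either direction and 1.49% lower. Limma-voom with quality weights called 0 of 40, against 0.0116% of all genes. The groups did not overlap for 1 gene, Fzd7, which is 2.5% of the 40 and close to the 2.44% of all genes (1.15% higher and 1.28% lower). Apart from the DESeq2 count, the shares of Wnt genes stood near or below those of all genes. The median log2 fold change (Arf6Q67L over control) of the 40 genes was 0.12, with 27 positive and 13 negative. Over all genes tested the median was -0.00, with 8584 positive and 8702 negative. For 22 of the 40 the fold change was smaller than its own standard error, as it was for 54.1% of all genes. In bulk tissue, fewer cells of a type and less RNA per cell cannot be told apart.

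**Figure D2:**
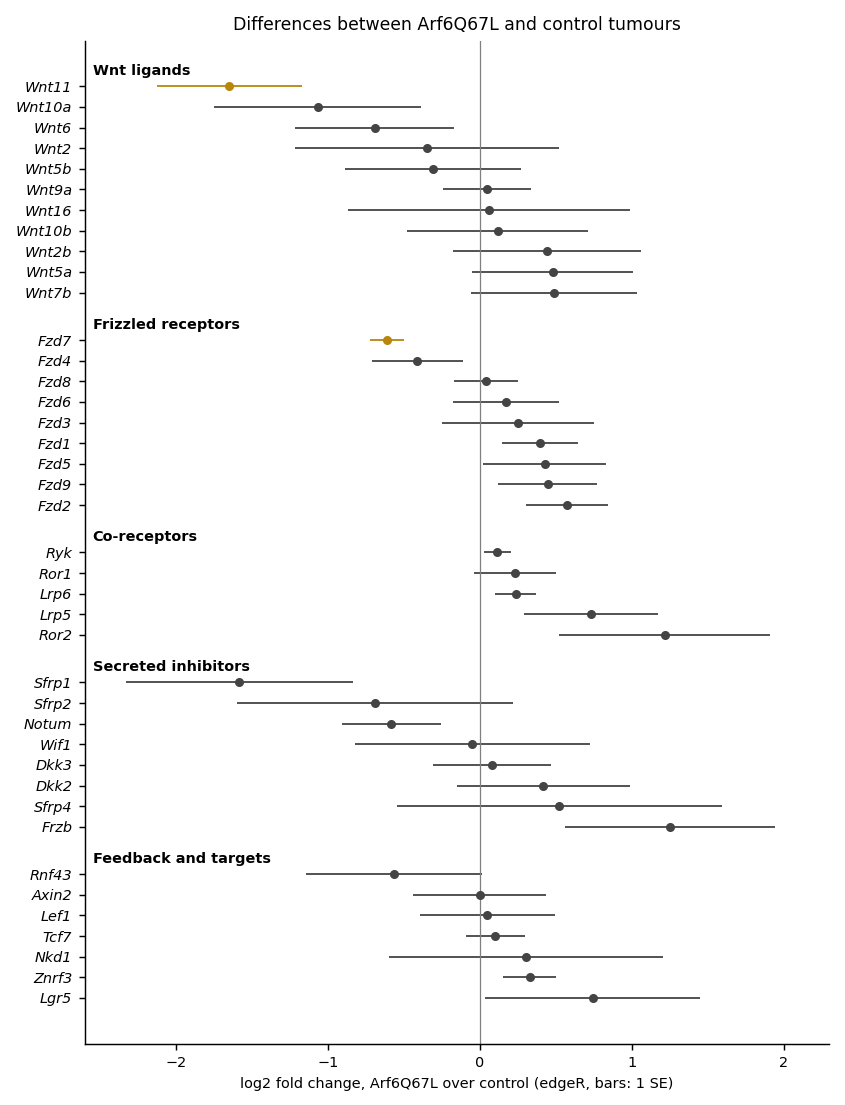
Log2 fold changes of the 40 tested genes, Arf6Q67L (n = 6) over control (n = 4), from edgeR, with bars of 1 standard error and genes grouped by role. Wnt11 and Fzd7, the 2 genes called by DESeq2, are drawn in gold at -1.65 and -0.61.

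Of the frizzled receptors, the seven-pass proteins that bind Wnt ligands, Fzd7 was the highest in controls and was lower in every Arf6Q67L tumour. Fzd7 (ENSMUSG00000041075, chromosome 1, 59482424 to 59486955, GRCm38) is a widely used receptor of stem and progenitor cells. In Arf6Q67L tumours it lay between 35.6 and 47.7 CPM with a median of 41.4, against 64.2, 64.9, 54.1 and 70.4 CPM in controls 1 to 4. The highest Arf6Q67L tumour was thus below the lowest control. It averaged 41.5 ± 5.24 CPM over the 6 Arf6Q67L tumours, against 63.4 ± 6.76 CPM over the 4 controls (mean ± SD). The log2 fold change was -0.61 (SE 0.11). The Arf6Q67L level was thus 65.4% of that of controls. The adjusted p over all genes was 0.233 in edgeR, 0.147 in limma-voom and 0.00101 in DESeq2. With each tumour left out in turn, the edgeR fold change stayed between -0.68 and -0.55. DESeq2 kept the call in 10 of 10 cases, with adjusted p-values from 3.12e-04 to 0.0158. Fzd7 has the lowest p of the tested genes, and its groups stay apart whichever tumour is left out. These fits are thus no separate support for the difference.

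Wnt11, a ligand that acts mainly on cell polarity and movement, is the other gene with a DESeq2 call, and it was weakly expressed. Wnt11 (ENSMUSG00000015957, chromosome 7, 98835112 to 98855195, GRCm38) lay between 0.524 and 2.69 CPM in Arf6Q67L tumours with a median of 0.762, against 4.89, 3.14, 3.35 and 1.91 CPM in controls 1 to 4. In 5 of 6 Arf6Q67L tumours it was below every control, and tumour 4, at 2.69 CPM, was above control 4. It averaged 1.06 ± 0.819 CPM over the 6 Arf6Q67L tumours, against 3.32 ± 1.22 CPM over the 4 controls (mean ± SD). The log2 fold change was -1.65 (SE 0.48). In edgeR the adjusted p was 0.283, and in DESeq2 it was 0.0449. The DESeq2 call was lost in 8 of 10 cases when a tumour was left out, with adjusted p-values up to 0.154, and it was kept without Arf6Q67L tumour 4 or control 4.

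The marker lists of other cell types went both ways. Median log2 fold changes were positive for fibroblast (0.43), skeletal muscle (0.47), Schwann cell and nerve (0.23), and bone and cartilage markers (1.97, with 2 tested). They were negative, as for Fzd7 and Wnt11, for melanocyte (-0.06, with 2 tested) and keratinocyte markers (-0.22, with 3 tested). The 4 other lists with a negative median follow. Blood endothelial markers had negative log2 fold changes in 6 of 7 cases (median -0.63), with a summed level of 77.1 to 268 CPM in Arf6Q67L tumours and 128 to 308 CPM in controls. T cell markers had negative ones in 7 of 7 (median -2.11), with sums of 13.97 to 75.2 CPM in Arf6Q67L tumours and 25.4 to 272 CPM in controls. Macrophage markers had them in 5 of 6 (median -0.78), with sums of 619 to 1485 CPM in Arf6Q67L tumours and 1005 to 2544 CPM in controls. Adipocyte markers had them in 4 of 4 (median -2.61), with sums of 5.46 to 73.1 CPM in Arf6Q67L tumours and 14.2 to 182 CPM in controls. The sums overlapped between the groups for all 4 lists, and the part of these cells in the Fzd7 and Wnt11 differences was not tested.

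**Figure D3:**
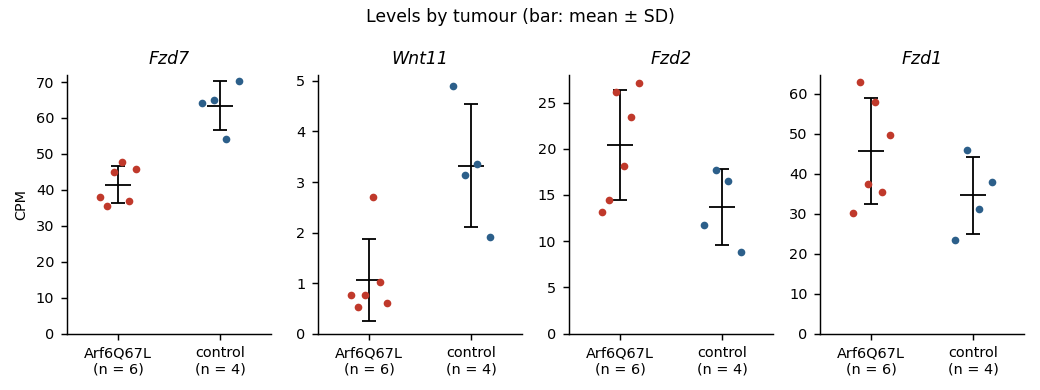
CPM of Fzd7, Wnt11, Fzd2 and Fzd1 in each tumour (points in order of tumour number; Arf6Q67L left, n = 6; control right, n = 4), with the group mean and SD in black. Fzd7 is between 35.6 and 47.7 CPM in Arf6Q67L tumours and at least 54.1 CPM in controls, while the groups overlap for the other 3 genes.

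The promoters of these 2 genes are shown because they are the 2 with a DESeq2 call, together with that of Axin2, a standard readout of beta-catenin signalling. Each sequence runs from 250 bases before to 50 bases after the RefSeq transcript start (GRCm38.p6), 5′ to 3′ on the plus strand, with capitals marking the core of a TCF/LEF element. The windows are chr1:59481897-59482196 for Fzd7, chr7:98834862-98835161 for Wnt11 and chr11:108920099-108920398 for Axin2. The motif was searched on both strands as CTTTGAT, as CTTTGAA, as CTTTGTA and as CTTTGTT, forms that share the first 5 letters.
Fzd7: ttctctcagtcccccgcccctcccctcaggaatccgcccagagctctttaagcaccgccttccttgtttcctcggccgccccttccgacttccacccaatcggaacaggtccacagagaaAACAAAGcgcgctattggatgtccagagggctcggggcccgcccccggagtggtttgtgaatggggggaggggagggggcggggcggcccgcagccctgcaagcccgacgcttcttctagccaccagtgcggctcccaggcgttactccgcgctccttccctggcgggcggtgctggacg
Wnt11: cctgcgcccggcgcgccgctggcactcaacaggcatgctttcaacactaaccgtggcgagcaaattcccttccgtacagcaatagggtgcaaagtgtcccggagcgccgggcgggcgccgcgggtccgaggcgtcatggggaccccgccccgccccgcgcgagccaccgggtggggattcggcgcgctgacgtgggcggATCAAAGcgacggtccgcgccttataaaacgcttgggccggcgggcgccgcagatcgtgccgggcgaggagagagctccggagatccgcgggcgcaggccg
Axin2: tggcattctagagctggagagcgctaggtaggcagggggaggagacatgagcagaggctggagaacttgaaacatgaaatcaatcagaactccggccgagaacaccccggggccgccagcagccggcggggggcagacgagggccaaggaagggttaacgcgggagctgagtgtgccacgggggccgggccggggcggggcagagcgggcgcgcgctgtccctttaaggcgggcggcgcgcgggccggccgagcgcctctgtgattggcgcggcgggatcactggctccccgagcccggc
In Fzd7 the match is CTTTGTT on the minus strand, and its farthest base lies 130 bases before the start used by RefSeq. That start lies upstream of the one in the GENCODE annotation. In Wnt11 the match is CTTTGAT on the minus strand, with its farthest base 51 bases before the start. No match falls in this window of Axin2. The RefSeq promoters covered 35 genes of the set, and a match lay in 6 of them (17.1%), against 18.9% of all genes there, a similar share. The other 4 with a match were Lef1, Wnt5b, Wnt3 and Dkk1.

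The other frizzled receptors overlapped between the groups. Fzd1 ranged from 30.2 to 62.8 CPM with a median of 43.6 in Arf6Q67L tumours, against 23.4, 46.0, 31.2 and 37.8 CPM in controls (log2 fold change 0.40, SE 0.25, edgeR adjusted p = 0.572). Fzd2, a receptor for WNT5A, ranged from 13.2 to 27.1 CPM with a median of 20.8 in Arf6Q67L tumours, against 11.7, 17.7, 16.6 and 8.86 CPM in controls, and 4 of 6 Arf6Q67L tumours were above every control (0.57, SE 0.27, edgeR adjusted p = 0.448). Fzd4, which also receives Norrin in vessels, ranged from 4.82 to 16.3 CPM with a median of 10.7 in Arf6Q67L tumours, against 18.7, 10.8, 15.0 and 14.7 CPM in controls (-0.41, SE 0.30, edgeR adjusted p = 0.633). The remaining Fzd3, Fzd5, Fzd6, Fzd8 and Fzd9 had log2 fold changes between 0.04 and 0.44, each with an edgeR adjusted p of at least 0.634.

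Set on a per-length scale, Fzd7 held the highest level of any frizzled gene in 4 of 4 controls and in 2 of 6 Arf6Q67L tumours, and Fzd1 held it in the other 4. Fzd7 made up 16.9% to 28.0% of the summed frizzled level (CPM per kilobase) in Arf6Q67L tumours and 33.4% to 40.2% in controls. The sum itself was 34.1 to 46.7 in Arf6Q67L tumours and 35.2 to 42.0 CPM per kilobase in controls, so the total of frizzled transcripts overlapped while the share of Fzd7 did not. That share rests on the same counts as the Fzd7 level.

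Among the ligands, Wnt5a, Wnt7b and Wnt10a were the main transcripts. Wnt5a ranged from 27.5 to 215 CPM with a median of 112 in Arf6Q67L tumours, against 61.6, 72.8, 156 and 34.7 CPM in controls (log2 fold change 0.48, SE 0.53, edgeR adjusted p = 0.765). The lowest and the highest tumour were both Arf6Q67L, tumours 2 and 3. Wnt7b, a ligand that acts through beta-catenin, ranged from 24.7 to 124 CPM with a median of 42.4 in Arf6Q67L tumours, against 43.0, 43.2, 59.4 and 9.56 CPM in controls (0.49, SE 0.54, edgeR adjusted p = 0.766). Wnt10a, a ligand of hair, tooth and skin development, ranged from 4.35 to 43.0 CPM with a median of 19.1 in Arf6Q67L tumours, against 51.6, 84.5, 18.9 and 24.8 CPM in controls (-1.07, SE 0.68, edgeR adjusted p = 0.577). For Wnt10a 3 of 6 Arf6Q67L tumours were below every control and none was above the highest one. Wnt6, a weakly expressed relative, ranged from 0.135 to 1.12 CPM with a median of 0.424 in Arf6Q67L tumours, against 1.01, 0.912, 0.599 and 0.604 CPM in controls (-0.69, SE 0.52, edgeR adjusted p = 0.644).

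By CPM per kilobase, the ligand with the highest level in a tumour was Wnt5a in 4 of 6 Arf6Q67L tumours and 1 of 4 controls. It was Wnt10a in 1 Arf6Q67L tumour and 3 controls, and Wnt7b in 1 Arf6Q67L tumour. Wnt5a made up 15.0% to 45.1% of the summed ligand level in Arf6Q67L tumours (median 34.2%) and 14.2% to 40.7% in controls (median 18.6%). Wnt10a made up 6.55% to 35.6% (median 17.8%) in Arf6Q67L tumours and 15.6% to 56.7% (median 43.6%) in controls. Both ranges overlap, so the make-up of the ligands did not separate the genotypes. The other tested ligands were Wnt2, Wnt2b, Wnt5b, Wnt9a, Wnt10b and Wnt16, with log2 fold changes between -0.35 and 0.44 and edgeR adjusted p-values of at least 0.820.

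**Figure D4:**
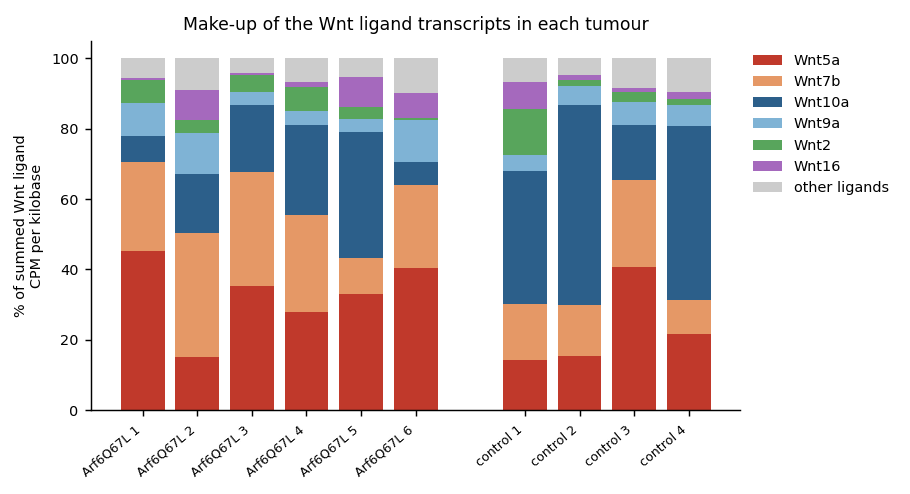
Share of each ligand in the summed CPM per kilobase of the 19 Wnt ligands, with 1 bar per tumour, 6 ligands coloured and the rest in grey, Arf6Q67L tumours on the left and controls on the right. Wnt10a takes 15.6% to 56.7% in controls and 6.55% to 35.6% in Arf6Q67L tumours, ranges that overlap.

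Of the co-receptors, Ryk, a receptor with an inactive kinase domain, was the most abundant per length in all 10 tumours, and it was also the steadiest gene of the set. It ranged from 132 to 158 CPM with a median of 139.6 in Arf6Q67L tumours, against 146, 127, 138 and 115 CPM in controls (log2 fold change 0.11, SE 0.09, edgeR adjusted p = 0.652). Lrp6, the co-receptor that frizzled needs to stabilise beta-catenin, ranged from 92.2 to 137 CPM with a median of 119.7 in Arf6Q67L tumours, against 118, 96.9, 96.5 and 85.1 CPM in controls (0.24, SE 0.14, edgeR adjusted p = 0.535). Its close relative Lrp5 ranged from 17.8 to 84.2 CPM with a median of 26.8 in Arf6Q67L tumours, against 29.6, 17.9, 23.5 and 19.7 CPM in controls (0.73, SE 0.44, edgeR adjusted p = 0.560). The highest Lrp5 values were those of Arf6Q67L tumours 2 and 3, and the other 4 lay among the controls or below them.

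The receptor tyrosine kinase Ror2, through which WNT5A acts, ranged from 1.08 to 23.7 CPM with a median of 10.3 in Arf6Q67L tumours, against 5.22, 6.92, 5.29 and 1.51 CPM in controls (1.22, SE 0.69, edgeR adjusted p = 0.531). Of 6 Arf6Q67L tumours 4 were above every control and tumour 2 was below every control. Tumour 3 held the highest value of Ror2, as it did of Wnt5a, and tumour 2 the lowest of both. For Ror1 the log2 fold change was 0.23 (SE 0.27). All 5 co-receptors had positive fold changes and none passed in edgeR, DESeq2 or limma-voom.

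Among the genes listed as secreted inhibitors, Dkk3 and Dkk2 had the highest mean levels per length. Dkk3, a divergent member of the dickkopf family, ranged from 121 to 270.4 CPM with a median of 164 in Arf6Q67L tumours, against 163, 168, 270.3 and 48.9 CPM in controls (log2 fold change 0.08, SE 0.39, edgeR adjusted p = 0.956). Dkk2, which binds LRP5 and LRP6, ranged from 42.0 to 369 CPM with a median of 132 in Arf6Q67L tumours, against 113, 50.8, 150.4 and 175 CPM in controls (0.42, SE 0.57, edgeR adjusted p = 0.815). Dkk1 had 3 counts in all Arf6Q67L tumours together and 0 in controls, so the dickkopf family was represented by these 2 genes.

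Notum, an enzyme that removes the lipid from Wnt ligands and is itself a beta-catenin target, ranged from 16.8 to 55.8 CPM with a median of 29.1 in Arf6Q67L tumours, against 66.8, 42.6, 39.5 and 42.7 CPM in controls (-0.58, SE 0.32, edgeR adjusted p = 0.520). In 4 of 6 Arf6Q67L tumours it was below every control. Of its exon bases 29.4% are shared with Notumos on the opposite strand, and the strand setting of the counting is not given in the sources used here, so reads of the pair may not be told apart.

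Sfrp1 and Sfrp2, decoy receptors that bind Wnt ligands, varied widely inside each group. Sfrp1 ranged from 7.85 to 60.5 CPM with a median of 14.2 in Arf6Q67L tumours, against 11.1, 54.4, 34.9 and 165 CPM in controls (-1.58, SE 0.75, edgeR adjusted p = 0.451). Without control 4 its log2 fold change was -0.58. Sfrp2 ranged from 0.650 to 18.8 CPM with a median of 2.37 in Arf6Q67L tumours, against 5.83, 4.68, 4.16 and 15.1 CPM in controls (-0.69, SE 0.91, edgeR adjusted p = 0.807). In 5 of 6 Arf6Q67L tumours Sfrp2 was below every control, and tumour 4 was above them all. With each tumour left out in turn, the edgeR log2 fold change of Sfrp2 lay between -2.07 and -0.08. Only without Arf6Q67L tumour 4, the highest of its group in both genes, did DESeq2 call Sfrp2 (adjusted p = 0.0181) and Sfrp1 (adjusted p = 0.0309) lower. Dropping that value favours such a call, and edgeR called neither gene in that fit. With all tumours, DESeq2 gave Sfrp2 no adjusted p and Sfrp1 one of 0.261. Control 4 and Arf6Q67L tumour 4, the highest in Sfrp1 and Sfrp2 of their groups, had summed fibroblast markers of 6599 CPM (Arf6Q67L tumour 4) and 2831 CPM (control 4), the highest and the lowest of the 10 tumours, and the part of those cells was not tested. Frzb, another decoy receptor, ranged from 3.95 to 55.8 CPM with a median of 14.8 in Arf6Q67L tumours, against 3.30, 9.93, 15.8 and 4.46 CPM in controls (1.25, SE 0.69, edgeR adjusted p = 0.517). Sfrp4 and Wif1, also Wnt-binding, had log2 fold changes of 0.52 (SE 1.07) and -0.05 (SE 0.77).

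The feedback and target genes gave no call in edgeR, DESeq2 or limma-voom. Axin2, a scaffold of the beta-catenin destruction complex and a direct target of the pathway, ranged from 5.63 to 10.4 CPM with a median of 7.67 in Arf6Q67L tumours, against 7.96, 14.1, 8.46 and 1.74 CPM in controls. It averaged 8.06 ± 1.72 CPM over the 6 Arf6Q67L tumours, against 8.06 ± 5.04 CPM over the 4 controls (mean ± SD), and the highest and the lowest tumour were both controls. The log2 fold change was -0.00 with an SE of 0.44, and its sign changed with the processing. Znrf3, a ubiquitin ligase that removes frizzled receptors from the cell surface, ranged from 8.30 to 13.3 CPM with a median of 10.7 in Arf6Q67L tumours, against 7.91, 6.92, 9.97 and 8.45 CPM in controls (0.33, SE 0.17, edgeR adjusted p = 0.496), and 4 of 6 Arf6Q67L tumours were above every control. Its relative Rnf43 ranged from 0.303 to 0.944 CPM with a median of 0.607 in Arf6Q67L tumours, against 0.431, 1.51, 0.141 and 1.54 CPM in controls (-0.57, SE 0.58, edgeR adjusted p = 0.746).

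Tcf7, which encodes the nuclear partner TCF1 and is also strongly expressed in T cells, was the highest of these genes per length in all 10 tumours. It ranged from 24.0 to 42.9 CPM with a median of 32.5 in Arf6Q67L tumours, against 26.3, 44.8, 26.4 and 27.5 CPM in controls (log2 fold change 0.10, SE 0.20, edgeR adjusted p = 0.874). The summed level of T cell markers in controls 1 to 4 was 30.02, 190.2, 25.4 and 272 CPM. Control 2, with the second highest sum, had the highest Tcf7 of the 10 tumours, and control 4, with the highest sum, had 27.5 CPM of Tcf7. The part of T cells in Tcf7 was not tested. Lgr5, a receptor for R-spondins and a stem cell marker, ranged from 0.575 to 8.62 CPM with a median of 5.01 in Arf6Q67L tumours, against 1.88, 2.45, 2.89 and 4.19 CPM in controls (0.74, SE 0.71, edgeR adjusted p = 0.728). Lef1 and Nkd1 were low, with log2 fold changes of 0.05 (SE 0.45) and 0.30 (SE 0.90).

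Over all 10 tumours, the highest exceeded the lowest by more than 10-fold in 16 of the 40 genes and by less than 3-fold in 8, from 1.37-fold for Ryk to 95.1-fold for Sfrp4. Within the 6 Arf6Q67L tumours it did so by more than 10-fold in 10 genes and by less than 3-fold in 14, and within the 4 controls by more than 10-fold in 6 and by less than 3-fold in 20. For Sfrp4 the fold was 95.1 within Arf6Q67L tumours and 6.89 within controls. Arf6Q67L tumour 3 held the highest value of the 10 tumours for 10 of the 40 genes (25.0%), against 14.9% of all genes tested, among them Wnt5a, Wnt7b, Wnt2b, Ror2, Dkk2 and Nkd1. It also held the lowest value for 6 (15.0%, against 14.3% of all genes), among them Fzd3 at 4.44 CPM. The same tumour had the highest summed level of 7 keratinocyte markers, 38.5 CPM, in a range of 7.47 to 38.5 CPM in Arf6Q67L tumours and 10.6 to 27.9 CPM in controls. Most of that sum was Dsp (32.1 CPM), while Krt5 had 0 counts in 8 and Krt14 in 9 of the 10 tumours. Across the Arf6Q67L tumours Wnt7b had the same order as this sum, and across the controls it did not. This is 1 pair among many genes and marker lists, and how many other pairs share an order was not counted. The part of keratinocytes in Wnt7b and the other values of tumour 3 was not tested. Control 4 held the lowest value for 9 (22.5%, against 16.7% of all genes), among them Axin2, Wnt7b, Wnt9a, Fzd6 and Dkk3. In control 4 the summed skeletal muscle markers were 1077 CPM, against 31.6, 3.55 and 3.10 CPM in controls 1 to 3. In Arf6Q67L tumours they were 13.4 to 691 CPM. Control 4 also had the highest T cell (272 CPM), macrophage (2544 CPM) and adipocyte (182 CPM) sums of the 10 tumours. Its fibroblast sum (2831 CPM) was the lowest. The part of these cells in the values of control 4 was not tested. Since the library of control 4 stood apart over all genes, the fit without it is given here, 1 of the 10 that each left out a tumour. Without control 4 the log2 fold change was -0.55 for Fzd7 and -1.84 for Wnt11 in DESeq2, with adjusted p-values of 0.0125 and 0.0418. In that fit edgeR again called 0 of the tested genes. As given above, for Wnt11 DESeq2 kept the call in 2 of those 10 fits and lost it in 8. For Fzd7, whose groups stay apart in each fit, it kept the call in all 10.

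**Figure D5:**
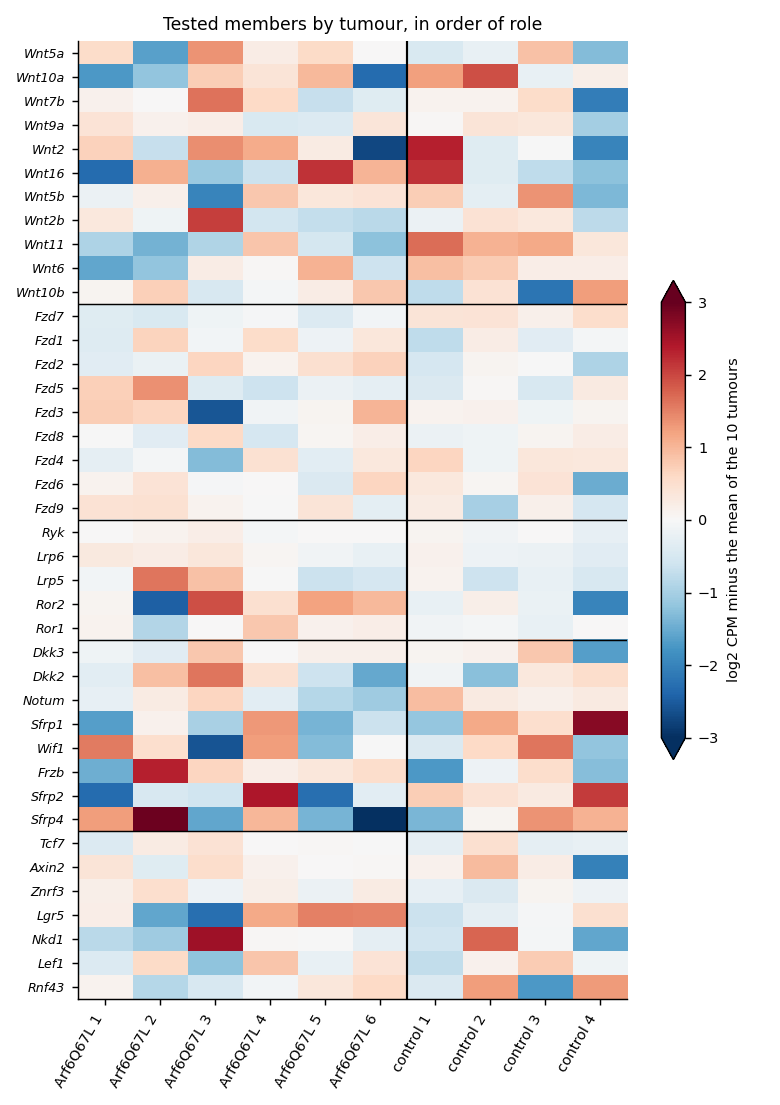
Log2 CPM of the 40 tested genes in each tumour after subtraction of the gene's mean over the 10 tumours (red, above the mean; blue, below; colours saturate at 3), with Arf6Q67L tumours left of the vertical line and controls right of it and roles separated by horizontal lines. Fzd7 is the gene whose Arf6Q67L tumours (up to 47.7 CPM) are all below the controls (from 54.1 CPM). Arf6Q67L tumour 3 holds the highest value for 10 genes and the lowest for 6, and control 4 the highest for 4 and the lowest for 9.

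A further list of 57 genes of the pathway, which covers ligand secretion, R-spondins, the destruction complex, nuclear partners and planar polarity, was fitted in the same way. Of these 50 were tested and 0 passed in edgeR, while 5 had an unadjusted p under 0.05 (3 higher and 2 lower, against 11.7% of all genes). The groups overlapped for all 50, and the median log2 fold change was 0.05. DESeq2 called 1 of 50, against 2.5% of all genes (1.01% higher). It was Tcf7l1, which encodes the TCF factor that mostly represses targets (chromosome 6, 72626378 to 72789254). Tcf7l1 averaged 15.4 ± 3.93 CPM over the 6 Arf6Q67L tumours, against 7.63 ± 2.38 CPM over the 4 controls (mean ± SD). Its log2 fold change was 1.01 (SE 0.25), with adjusted p = 0.239 in edgeR, and adjusted p = 0.0111 in DESeq2. Its lowest Arf6Q67L value, 10.7 CPM in tumour 4, was just under the highest control value of 10.96 CPM. The polarity gene Prickle2 (-0.75, SE 0.21) and the polarity cadherin Celsr1 (-1.68, SE 0.60) had negative fold changes, and Celsr2 (1.10, SE 0.46), the destruction complex scaffold Apc (0.32, SE 0.12) and the nuclear cofactor Pygo1 (0.995, SE 0.449) positive ones, with edgeR adjusted p-values from 0.283 to 0.428.

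Beta-catenin and its best-known growth targets had nearly equal means. Ctnnb1 averaged 613 ± 114 CPM over the 6 Arf6Q67L tumours, against 617 ± 179.6 CPM over the 4 controls (mean ± SD), with a log2 fold change of -0.01 (SE 0.20). Ccnd1, which encodes cyclin D1, averaged 676 ± 208 CPM over the 6 Arf6Q67L tumours, against 676 ± 167 CPM over the 4 controls (mean ± SD), with a log2 fold change of 0.00 (SE 0.23). For Myc it was -0.05 (SE 0.27), and for Wls, which carries Wnt ligands to the cell surface, 0.23 (SE 0.13). These 4 genes were picked after their values were seen. RNA levels hold no measure of the location or phosphorylation of beta-catenin.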

How the data were processed

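The deposited file is 1 table of raw counts per gene, with whole numbers for 52636 mouse Ensembl identifiers and 1 column per tumour. The submitters' processing notes name STAR 2.5.2b, featureCounts 1.5.1, DESeq2 1.18.0 and GRCm38, with no role for each. Columns were matched to samples by the library identifier in the labels, and groups come from the genotype label. Symbols and exon lengths came from GENCODE (99.7% of identifiers matched) and promoters from a RefSeq table of GRCm38.p6. The test was the quasi-likelihood one of edgeR 4.0.16, run in R 4.3.3 (low genes removed by filterByExpr, minimum count 10; TMM, robust glmQLFit and glmQLFTest, genotype as the term, Benjamini-Hochberg over 17286 genes, threshold 0.05). DESeq2 1.42.0, limma-voom (limma 3.58.1), another scaling, no filter and leaving out each tumour were alternatives. Both count tests were run on a single simulated data set, drawn with the dispersions that edgeR had fitted. There DESeq2 recovered more of the changed genes than edgeR and made more false calls. In that draw the share of false calls was above the nominal rate in both. The SE of an edgeR fold change was derived from the test, as its absolute value over the square root of its F statistic. CPM uses TMM factors and log2 CPM a prior count of 2. The genes and lists were chosen with earlier results of these data known. Values by tumour are given for genes past a threshold or with separate groups, the 4 of lowest p and the 3 of highest level in each role. No 2 tumours of a group looked like 1 library deposited again (lowest chi-square for a gene on average 77.9). Each sample title holds a different number, but the labels do not say whether it names a mouse. The tests therefore rest on the spread between these samples, which may not be separate mice. Counting limits cover counting error only. Tumours are numbered in accession order, which pairs none. Libraries were numbered by genotype, and an effect of that order cannot be told apart from the genotype.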

Additional observations from a re-analysis of the deposited data

Results flagged for a closer look

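In 14 of 80 groups of values (40 genes in 2 genotypes) the highest tumour stood far from the rest by Dixon's criterion, which chance meets in about 1 of 20 groups of normally distributed values. This is 17.5% of the groups, against 8.61% over all genes tested, where the same criterion on CPM also marked the highest tumour more often than the lowest (2498 against 477 times). The difference between these shares was not tested.
Among Arf6Q67L tumours, tumour 3 stood out in Wnt2b (10.1 CPM, others at most 2.95), Wnt7b (124 CPM, others at most 61.4), Dkk3 (270.4 CPM, others at most 172) and Nkd1 (4.41 CPM, others at most 0.721). Tumour 4 stood out in Wnt11 (2.69 CPM, others at most 1.02), Sfrp1 (60.5 CPM, others at most 26.97) and Sfrp2 (18.8 CPM, others at most 2.77). Tumour 2 stood out in Sfrp4 (24.5 CPM, others at most 7.58) and Frzb (55.8 CPM, others at most 17.3).
Among controls, control 1 stood out in Wnt2 (16.3 CPM, others at most 3.17), Wnt16 (18.3 CPM, others at most 3.11) and Notum (66.8 CPM, others at most 42.7). Control 4 stood out in Sfrp2 (15.1 CPM, others at most 5.83) and control 2 in Tcf7 (44.8 CPM, others at most 27.5).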

How the results depend on the processing

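Over all genes edgeR called 0 higher and 0 lower, DESeq2 167 and 246, and limma-voom 1 and 1. Leaving out each tumour gave 0 to 1 higher in edgeR, the 1 without control 1. Of the Wnt genes edgeR called 0, DESeq2 2, and DESeq2 with each tumour left out (chosen after seeing the data) 1 to 4. The direction of 30 of 46 log2 fold changes, Fzd7 and Wnt11 among them, held under every alternative. With each tumour left out it did not hold for Wnt2 (-0.70 to 1.06), Wnt2b (-0.33 to 0.62), Wnt5b (-0.62 to 0.19), Wnt9a (-0.17 to 0.19), Wnt10b (-0.24 to 0.84), Wnt16 (-0.55 to 1.48), Fzd6 (-0.10 to 0.35), Fzd8 (-0.0887 to 0.13), Sfrp4 (-0.53 to 0.91), Dkk3 (-0.21 to 0.44), Wif1 (-0.42 to 0.64), Axin2 (-0.32 to 0.41), Lef1 (-0.16 to 0.38) and Nkd1 (-0.81 to 1.41). Limma-voom turned Wnt2b (-0.29), Wnt9a (-0.16), Fzd8 (-0.0723), Dkk3 (-0.0372), Tcf7 (-0.0218) and Nkd1 (-0.58). Differences of mean log2 CPM turned Wnt2 (0.00465), Fzd3 (-0.0830), Sfrp4 (-0.45), Axin2 (0.30) and Lef1 (-0.00808). Axin2 was 0.0137 with DESeq2 size factors in edgeR, 0.0137 with DESeq2, and 0.0163 with no filter. The cause was not tested. No paired analysis was possible because the tumour numbers pair no tumours. Genes with few counts (Wnt6, Wnt10b, Wnt11, Fzd9, Lef1, Nkd1 and Rnf43) are limited by depth. Wnt11 had 217 counts in the Arf6Q67L tumours together and 445 in the controls together.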
